A study of Mus musculus with 24 samples.

Results

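Kupffer cells are the macrophages that live in the sinusoids of the liver, and 9 genes that mark them were followed here in liver RNA of mice whose Keap1 was silenced. The genes were Timd4, Cd163, Vsig4, Clec4f, Marco, Cd5l, Adgre1, C1qa and Folr2, named as markers with earlier results of these data known. They were measured by 10 probe sets, each annotated to 1 of these genes alone, out of 45037 tested probe sets and 18193 genes. Marco had 2 probe sets and each of the other genes had 1. The study placed male C57BL6/J mice, 8 weeks old at the start, on a Western diet with 6% sucrose in the drinking water. All mice received a weekly tail vein injection of 1 mg/kg of a chemically modified siRNA for 7 weeks, either a scrambled sequence (siControl) or one of a pair of sequences against Keap1 (siKeap1-1 and siKeap1-2). Each group had 8 mice with 1 whole genome array per liver. All groups thus shared the diet, the carrier and the injections, and there was no group without siRNA or on normal chow. The study describes its lipid nanoparticles as a carrier that targets mainly hepatocytes. Per the methods each group held fed and fasted mice, which the labels do not tell apart.

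Resident Kupffer cells take up particles, bacteria, aged erythrocytes and modified lipoproteins from portal blood, and they carry a set of surface receptors that few other liver cells share. Timd4 binds phosphatidylserine on dying cells, Cd163 takes up haptoglobin bound to haemoglobin, Marco is a class A scavenger receptor, Vsig4 binds complement fragments and Clec4f is a galactose-binding lectin of mouse Kupffer cells. Macrophages that enter the liver from blood monocytes acquire these markers at different speeds, with Timd4 among the last. Keap1 holds the transcription factor Nrf2 for degradation, so that a loss of Keap1 activates genes of the oxidative stress response.

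The start regions of 4 markers are shown because these genes gave the different kinds of result described here. Timd4 was called lower with both siRNAs and Cd163 with siKeap1-1 only. Marco was called higher with siKeap1-2 only, and Clec4f was called with neither. Each run holds 250 bases before and 50 bases from the transcription start, read 5′ to 3′ on the strand of the gene, from RefSeq on build GRCm38.p6. Such a sequence was found for 7 of the 9 genes (8 start regions, with 2 for Folr2). Capitals mark a match to 1 of 4 short motifs searched on both strands.
Timd4, chr11:46810549-46810848, plus strand: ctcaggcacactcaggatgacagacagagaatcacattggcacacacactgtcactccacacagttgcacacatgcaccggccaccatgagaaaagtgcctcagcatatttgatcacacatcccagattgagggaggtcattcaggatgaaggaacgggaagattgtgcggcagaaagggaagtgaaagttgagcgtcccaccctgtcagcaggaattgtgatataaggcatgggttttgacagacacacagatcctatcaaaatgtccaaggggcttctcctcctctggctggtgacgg
Cd163, chr6:124304401-124304700, plus strand: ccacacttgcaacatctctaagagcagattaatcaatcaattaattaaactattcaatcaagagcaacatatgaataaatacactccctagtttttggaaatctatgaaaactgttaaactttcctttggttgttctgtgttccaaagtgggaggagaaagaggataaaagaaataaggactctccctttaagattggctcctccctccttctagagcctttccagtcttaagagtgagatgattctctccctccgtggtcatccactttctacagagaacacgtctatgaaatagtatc
Marco, chr1:120504975-120505274, minus strand: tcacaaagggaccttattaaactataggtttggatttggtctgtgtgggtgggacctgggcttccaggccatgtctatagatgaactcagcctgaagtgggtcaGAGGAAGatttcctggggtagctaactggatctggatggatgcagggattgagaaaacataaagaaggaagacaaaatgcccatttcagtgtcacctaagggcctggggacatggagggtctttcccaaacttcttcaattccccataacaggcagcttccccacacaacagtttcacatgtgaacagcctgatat
Clec4f, chr6:83656067-83656366, minus strand: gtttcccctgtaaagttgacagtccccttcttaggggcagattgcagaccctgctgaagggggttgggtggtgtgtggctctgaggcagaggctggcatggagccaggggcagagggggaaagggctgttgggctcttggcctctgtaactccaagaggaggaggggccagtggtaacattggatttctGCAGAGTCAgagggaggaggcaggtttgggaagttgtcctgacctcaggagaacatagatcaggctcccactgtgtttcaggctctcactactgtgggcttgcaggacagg

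In Marco the capitals are the PU.1-type motif GAGGAAG at position -146 from the start, a motif present in 13.6% of the 32851 start regions searched. In Clec4f they are the core of the antioxidant response element, TGACNNNGC, on the other strand at position -61, and 12.4% of all start regions hold that core. It occurred in 2 of the 8 marker regions, the other being the first of Folr2. The AP-1 motif TGANTCA (7.81% of all regions) occurred in the second Folr2 region, and TATAAA (13.6%) in 0 of the 8. The regions of Timd4 and Cd163 held none of the 4 motifs as spelled here. These matches describe the letters, and no binding was measured.

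Single arrays stood apart for these genes. Replicate 3 of siControl and replicate 7 of siKeap1-2 each had the highest signal of their group for 9 of the 9 genes, by a mean of 0.68 and 0.84 above the group mean on the log2 scale. Replicate 8 of siKeap1-1 was above its group mean for all 9 genes, by 0.59 on average, and was the highest of its group for 4 of them. Replicate 6 of siKeap1-2 was the lowest of its group for 5 genes, by 0.51 below the mean on average over the 9 (mean deviation -0.51). Replicate 2 of siKeap1-1 and replicate 3 of siKeap1-2 were above their group mean for 0 of the 9 genes, with mean deviations of -0.42 and -0.40. In the plot of deviations these arrays appear as columns of 1 colour. Replicate 6 of siControl had a mean deviation of -0.44, down to -1.48, but was above its group mean for 2 genes. Fewer Kupffer cells in a liver and less of an RNA in each cell cannot be told apart in whole tissue.

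**Figure D1:**
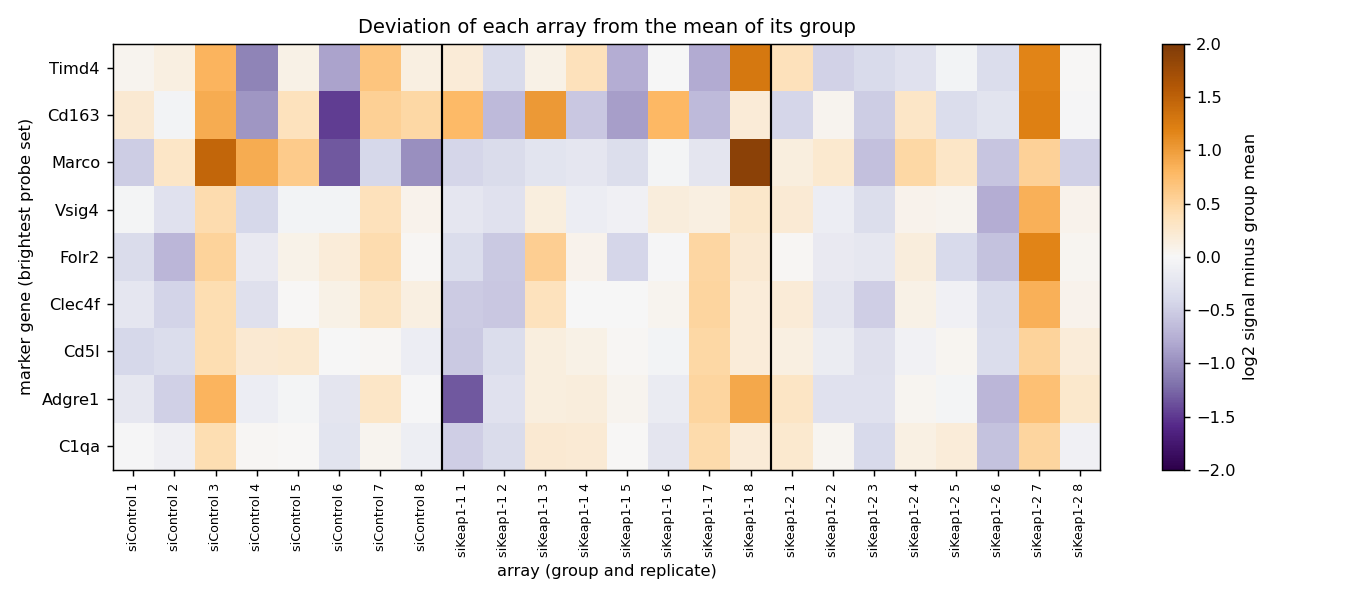
Log2 signal of each marker minus the mean of its group, for each array (columns, 8 per group and in replicate order) and each marker by its brightest probe set (rows). Replicate 3 of siControl and replicate 7 of siKeap1-2 are above their group mean for 9 of 9 markers, and replicate 8 of siKeap1-1 reached 1.89 above it for Marco.

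The target itself was lower with both siRNAs. The Keap1 probe set 1450746_at had a lowest, median and highest log2 signal of 9.33, 9.57 and 10.03 with siControl, 7.21, 7.47 and 7.93 with siKeap1-1, and 8.03, 8.23 and 8.59 with siKeap1-2. The 3 groups did not overlap at this probe set. The dimmer Keap1 probe set 1450747_at spanned 5.22 to 5.87 with siControl, 4.68 to 5.57 with siKeap1-1 and 4.64 to 5.19 with siKeap1-2. It fell by 0.42 with siKeap1-1 (adjusted p = 0.0262), where 6 of 8 arrays were below the lowest control, and by 0.44 with siKeap1-2 (adjusted p = 0.026), where 8 of 8 were. The arrays also differed in a control probe set of the manufacturer that reads 18S ribosomal RNA. Its mean log2 signal was 9.67 ± 0.82 (SD, n = 8) with siControl, 10.91 ± 0.49 with siKeap1-1 and 10.86 ± 0.20 with siKeap1-2. Within siControl, replicates 1 to 3 lay in the range of the treated arrays, and replicates 4 to 8 lay between 8.86 and 9.54, below every treated array. Within siKeap1-1 the same replicate numbers parted the other way. There replicates 1 to 3 lay between 10.17 and 10.44 and replicates 4 to 8 between 11.17 and 11.43. In siKeap1-2 they overlapped. The part of this signal in the changes was not tested, but values with it as a covariate are given beside the results that they alter.

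Among the markers, 4 of 10 probe sets were lower with siKeap1-1 and 0 were higher, at an adjusted p under 0.05 (limma, one fit of the 3 groups, Benjamini-Hochberg over all 45037 probe sets). Those were Cd163, Timd4, Folr2 and Vsig4. In the whole data set, 4.48% of probe sets were called lower, 4.51% higher and 8.99% in either direction with this siRNA. With siKeap1-2, 2 of 10 probe sets were lower (Timd4 and Folr2) and 2 were higher (both of Marco), where 2.96% of all probe sets were called lower, 3.15% higher and 6.1% in either direction. At an unadjusted p under 0.05, 5 marker probe sets passed for siKeap1-1 and 7 for siKeap1-2. The share of all probe sets at that threshold was not computed, so counts at it, here and for the gene lists below, have no background. At the limits of the methods, a fold change over 2 with an unadjusted p under 0.01, 2 marker probe sets passed for either siRNA (Timd4 and Cd163 for siKeap1-1, Timd4 and Marco for siKeap1-2), beside 0.617% and 0.557% of all probe sets. The median log2 fold change of the 9 genes was -0.55 with siKeap1-1 and -0.41 with siKeap1-2, beside 0.014 and -0.0073 over all genes. Since the markers were named with earlier results known, these counts and medians describe them and are no independent test. Both comparisons share the siControl arrays, so they are not independent of each other.

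**Figure D2:**
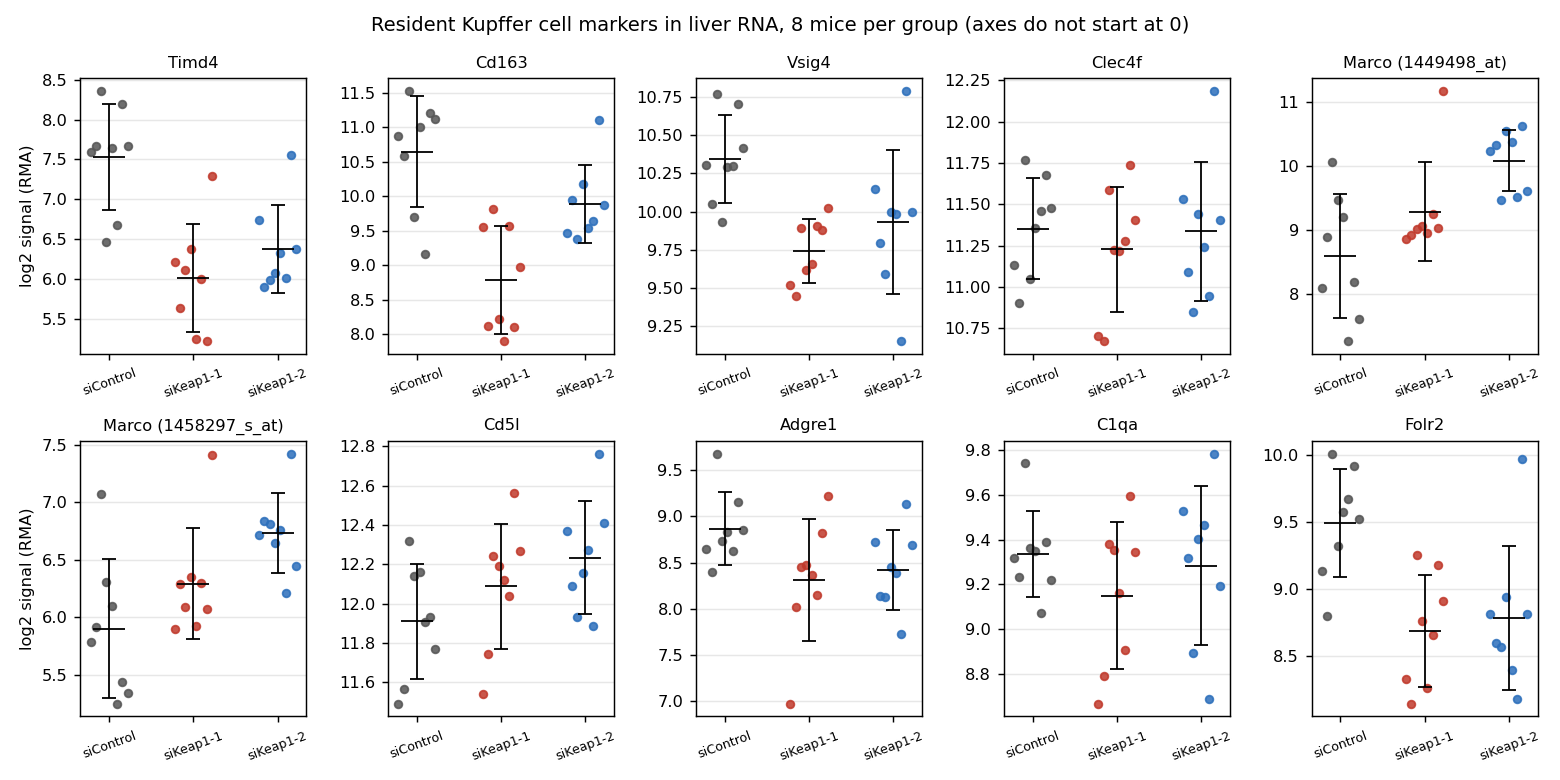
Log2 signal (y axis, not from 0) of each marker probe set in every liver, with points in replicate order and bars for mean ± SD of 8 mice per group. Timd4 and Cd163 sit lower with siKeap1-1, 7 and 5 of 8 arrays below the lowest siControl array, while Marco 1449498_at sits higher with siKeap1-2 and Clec4f overlaps in all 3 groups.

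Timd4, the receptor for phosphatidylserine that marks long-lived Kupffer cells, was lower with both siRNAs, as was Folr2, and had the larger change of the pair. Its log2 signal had a lowest, median and highest value of 6.46, 7.66 and 8.36 with siControl, 5.22, 6.06 and 7.30 with siKeap1-1, and 5.91, 6.20 and 7.56 with siKeap1-2. All 8 arrays of either siRNA were below the siControl median, and 7 of 8 with siKeap1-1 and 6 of 8 with siKeap1-2 were below the lowest siControl array. The exceptions included siKeap1-1 replicate 8 and siKeap1-2 replicate 7, which were high for the other markers as well. The signal fell by 1.52 (SE 0.29) on the log2 scale with siKeap1-1, a 2.87-fold lower signal (limma, adjusted p = 0.0015). With siKeap1-2 it fell by 1.16 (SE 0.29), a 2.23-fold lower signal (adjusted p = 0.0183). Leaving out any 1 array kept both calls. With the 18S signal as a covariate the change with siKeap1-1 was -1.69 (adjusted p = 0.023) and that with siKeap1-2 was -1.33 (adjusted p = 0.182). For siKeap1-2 the call was also lost against siControl replicates 1 to 3 alone (-1.50, adjusted p = 0.0612) and against replicates 4 to 8 alone (-0.96, adjusted p = 0.0788).

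The spread of Timd4 within siControl came from a pair of low arrays. Replicates 4 and 6 had log2 signals of 6.46 and 6.68, and the other 6 controls lay at 7.59 or above. The same arrays were the lowest controls for Cd163, at 9.70 and 9.17.

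Cd163, the haemoglobin scavenger receptor, had the largest change of the 9 genes with siKeap1-1. Its log2 signal had a lowest, median and highest value of 9.17, 10.94 and 11.53 with siControl, 7.90, 8.60 and 9.81 with siKeap1-1, and 9.37, 9.76 and 11.10 with siKeap1-2. With siKeap1-1 all 8 arrays were below the siControl median and 5 were below the lowest control. With siKeap1-2, 7 of 8 were below the siControl median and 0 were below the lowest control. The signal fell by 1.87 (SE 0.34) with siKeap1-1, a 3.65-fold lower signal (limma, adjusted p = 0.000788), and this call held without any 1 array, with the 18S covariate (-1.89, adjusted p = 0.0286) and against either part of the controls. With siKeap1-2 the difference was -0.76 (95% interval -1.45 to -0.07, adjusted p = 0.196). It was -0.93 without the high siKeap1-2 replicate 7 (adjusted p = 0.0997) and -0.63 without siControl replicate 3 (adjusted p = 0.314). Without siKeap1-2 replicate 6, which was at 9.64 for Cd163 and not the lowest there, it was -0.72 (adjusted p = 0.28).

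The siKeap1-1 arrays were spread in Cd163. Replicates 1, 3 and 6 were at 9.56, 9.81 and 9.56, replicate 8 was at 8.97, and the other 4 lay between 7.90 and 8.22. The first principal component of the deviations from group means, over the tested probe sets without the markers, divided these arrays likewise. Replicates 1, 3, 6 and 8 lay between -1.39 and -0.78 on it, and the other 4 between 0.60 and 1.27. The other groups were not divided as cleanly. In siControl, replicate 6 (-0.86) had the lowest Cd163 signal (9.17), while replicates 7 and 8 (-1.24 and -0.95) were at 11.20 and 11.12. In siKeap1-2, replicates 4 and 7 (-0.94 and -1.07) had the highest Cd163 signals. There replicate 1 (-0.41, at 9.46) lay below replicate 2 (1.12, at 9.95). The component was 1 of the covariates fitted as alternatives, but its part in the spread of Cd163 was not tested. Timd4 divided the siKeap1-1 arrays in part alike. Its lowest were replicates 2, 5 and 7, at 5.64, 5.24 and 5.22, while replicate 4 was at 6.38. Replicates 1, 3 and 6 were at 6.21, 6.12 and 6.00 for Timd4, and replicate 8 was the highest at 7.30. Marco did not divide the arrays as Cd163 did, since at 1449498_at replicate 1 was the lowest (8.86) and replicate 8 the highest (11.17).

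Vsig4, the complement receptor of the immunoglobulin superfamily, was lower with siKeap1-1. Its log2 signal ran from 9.93 to 10.77 with siControl (median 10.30), from 9.45 to 10.02 with siKeap1-1 (median 9.77) and from 9.15 to 10.79 with siKeap1-2 (median 9.99). With siKeap1-1, 7 of 8 arrays were below the lowest control. The signal fell by 0.60 (SE 0.16) with siKeap1-1 (adjusted p = 0.018). That call was lost with the 18S covariate (-0.62, adjusted p = 0.155) and against siControl replicates 1 to 3 alone (-0.63, adjusted p = 0.141), where the change itself was as large. With siKeap1-2 the difference was -0.41 (SE 0.16, adjusted p = 0.128). Without the high replicate 7 it was -0.54 and passed the test (adjusted p = 0.0238), and without the low replicate 6 it was -0.30 (adjusted p = 0.263).

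Folr2, the folate receptor of tissue macrophages, was lower with both siRNAs. Its log2 signal ran from 8.80 to 10.01 with siControl (median 9.55), from 8.14 to 9.26 with siKeap1-1 (median 8.71) and from 8.18 to 9.97 with siKeap1-2 (median 8.70). Below the lowest control lay 5 of 8 arrays with siKeap1-1 and 4 of 8 with siKeap1-2. The signal fell by 0.81 (SE 0.21) with siKeap1-1 (adjusted p = 0.0172) and by 0.71 (SE 0.21) with siKeap1-2 (adjusted p = 0.0471). The siKeap1-2 call stood close to the threshold: it remained in 8 of the 24 fits that left out 1 array, with adjusted p between 0.0054 (without siKeap1-2 replicate 7) and 0.102 (without siKeap1-2 replicate 6). With the 18S covariate the values were -0.64 (adjusted p = 0.292) and -0.55 (adjusted p = 0.577), and neither was called.

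Marco, the scavenger receptor for bacteria and unopsonised particles, was the marker that rose. At probe set 1449498_at the lowest, median and highest log2 signal was 7.25, 8.53 and 10.05 with siControl, 8.86, 9.02 and 11.17 with siKeap1-1, and 9.46, 10.28 and 10.62 with siKeap1-2. All 8 arrays of either siRNA were above the siControl median, and 5 of 8 with siKeap1-2 were above the highest control. The signal rose by 1.49 (SE 0.36) with siKeap1-2, a 2.82-fold higher signal (limma, adjusted p = 0.0122), and this call held in all 24 fits without 1 array. With siKeap1-1 the difference was 0.69 (95% interval -0.04 to 1.42, adjusted p = 0.251). Without siKeap1-1 replicate 8, at 11.17, it was 0.42 (adjusted p = 0.461). The other 7 siKeap1-1 arrays lay between 8.86 and 9.24, a narrower range than that of the controls.

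The second Marco probe set, 1458297_s_at, moved the same way with a smaller size. Its log2 signal spanned 5.25 to 7.07 in the siControl livers, 5.90 to 7.41 in the siKeap1-1 livers and 6.21 to 7.42 in the siKeap1-2 livers. It rose by 0.83 (SE 0.23) with siKeap1-2 (adjusted p = 0.0302), and the difference with siKeap1-1 was 0.39 (SE 0.23, adjusted p = 0.323). The siKeap1-2 call was lost without siKeap1-2 replicate 2 or 7 or without siControl replicate 6, 7 or 8, with adjusted p up to 0.0695. The Marco calls depended on which controls were used. Against siControl replicates 1 to 3 alone, the siKeap1-2 difference at 1449498_at was 1.08 (adjusted p = 0.318), against replicates 4 to 8 alone it was 1.74 (adjusted p = 0.00469), and with the 18S covariate it was 0.97 (adjusted p = 0.52). At 1458297_s_at these values were 0.47 (adjusted p = 0.57), 1.04 (adjusted p = 0.00502) and 0.46 (adjusted p = 0.669).

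**Figure D3:**
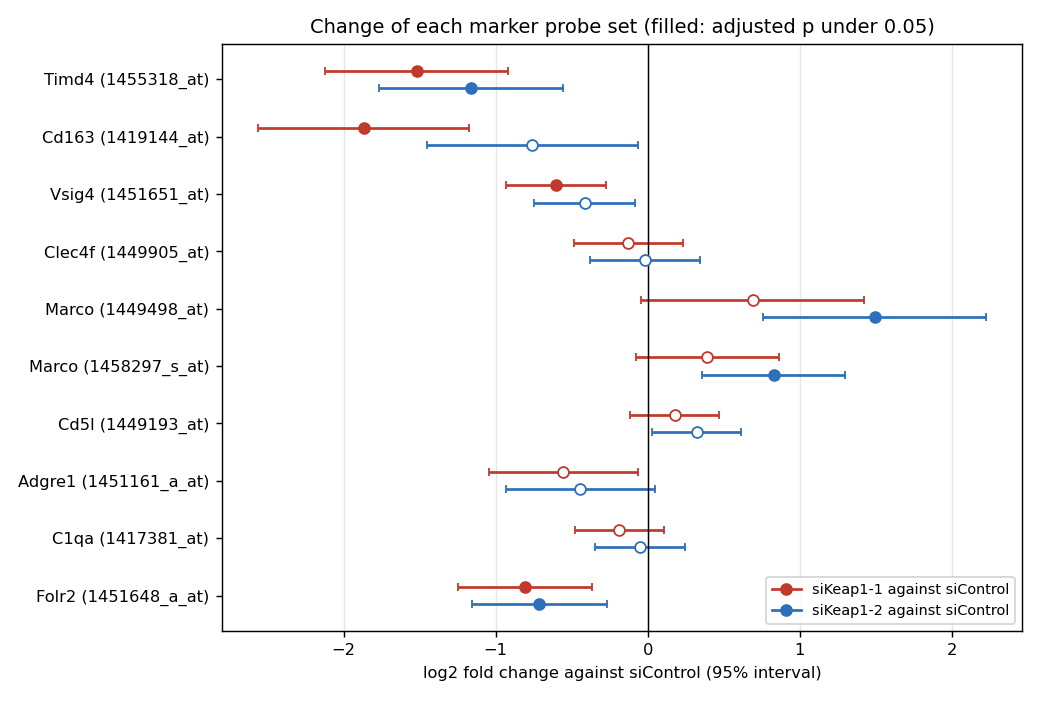
Log2 fold change of each marker probe set against siControl (x axis) with its 95% interval, for siKeap1-1 (red) and siKeap1-2 (blue), 8 mice per group, filled where the adjusted p was under 0.05. Intervals of Timd4 lie below 0 with both siRNAs, those of Marco above 0 with siKeap1-2, and those of Clec4f and C1qa span 0.

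The other 4 markers were not called with either siRNA. Clec4f, the Kupffer cell lectin, had a lowest, median and highest log2 signal of 10.90, 11.41 and 11.77 with siControl, 10.67, 11.25 and 11.74 with siKeap1-1, and 10.85, 11.33 and 12.19 with siKeap1-2. The groups overlapped over nearly their whole range. The difference was -0.13 with siKeap1-1 (95% interval -0.49 to 0.23, adjusted p = 0.729) and -0.02 with siKeap1-2 (95% interval -0.38 to 0.34, adjusted p = 0.973). These intervals leave out a fall of the size seen for Timd4 with either siRNA or for Cd163 with siKeap1-1.

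C1qa, a chain of complement C1q made by macrophages, had log2 signals of 9.07 to 9.74 in the siControl livers, 8.66 to 9.60 in the siKeap1-1 livers and 8.69 to 9.79 in the siKeap1-2 livers. The difference was -0.19 (95% interval -0.48 to 0.11, adjusted p = 0.481) and -0.05 (95% interval -0.35 to 0.24, adjusted p = 0.886). Adgre1, which encodes the F4/80 antigen of macrophages, ran from 8.40 to 9.68, from 6.97 to 9.22 and from 7.73 to 9.14 in the same order. Its difference was -0.55 (SE 0.24, adjusted p = 0.154) with siKeap1-1 and -0.44 (SE 0.24, adjusted p = 0.302) with siKeap1-2. The lowest array was siKeap1-1 replicate 1 at 6.97, and without it the siKeap1-1 difference was -0.36 (adjusted p = 0.301), while without the high replicate 8 it was -0.68 (adjusted p = 0.067). With siKeap1-2 it was -0.54 without replicate 7 (adjusted p = 0.196) and -0.34 without replicate 6 (adjusted p = 0.488). Cd5l, a secreted protein of tissue macrophages that binds lipids and limits apoptosis, ran from 11.49 to 12.32, from 11.54 to 12.56 and from 11.89 to 12.76. Its difference was 0.18 (adjusted p = 0.50) with siKeap1-1 and 0.32 (95% interval 0.03 to 0.62, adjusted p = 0.191) with siKeap1-2, or 0.25 without replicate 7 (adjusted p = 0.328) and 0.37 without replicate 6 (adjusted p = 0.151). The groups of all 3 genes overlapped.

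Between the siRNAs, 0 of 10 marker probe sets differed by limma at an adjusted p under 0.05, where 0.162% of all probe sets were called. At an unadjusted p under 0.05, 2 differed (Cd163 and Marco 1449498_at), and the share of all probe sets at that threshold was not computed. At the limits of the methods, again with the p of limma, Cd163 passed, beside 0.0577% of all probe sets. Cd163 was lower with siKeap1-1 than with siKeap1-2 (log2 difference -1.11, 95% interval -1.80 to -0.41, adjusted p = 0.243), with 5 of 8 arrays below the lowest siKeap1-2 array. Marco differed by -0.80 (95% interval -1.54 to -0.07, adjusted p = 0.484), with 7 of 8 siKeap1-1 arrays below the lowest siKeap1-2 array and replicate 8 above all of them. For Timd4 the difference was -0.36 (95% interval -0.96 to 0.24, adjusted p = 0.755). In order of mean level, Timd4 was thus highest with siControl, and the lower levels with siKeap1-2 and siKeap1-1 did not differ beyond their spread. Keap1 differed by -0.76 between siKeap1-1 and siKeap1-2 at 1450746_at (adjusted p = 0.0022) and by 0.02 at 1450747_at (adjusted p = 0.974).

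The 4 markers called lower with siKeap1-1 were also lower with the Clec4f signal as a covariate, which is a description and no further test. Clec4f itself differed by only -0.13 and -0.02 from siControl, so this covariate could move the group differences little. It chiefly takes out spread within groups that a marker shares with Clec4f (r = 0.92 for Folr2 and 0.87 for Vsig4). With the Clec4f signal of each array as a covariate, an analysis chosen after seeing the data, Timd4 differed by -1.42 with siKeap1-1 (adjusted p = 0.00145) and by -1.15 with siKeap1-2 (adjusted p = 0.0108). With siKeap1-1 Cd163 differed by -1.77 (adjusted p = 0.000916). Vsig4 then differed by -0.50 with siKeap1-1 (SE 0.09, adjusted p = 0.000561) and by -0.40 with siKeap1-2 (adjusted p = 0.00554), the latter now past the threshold. Folr2 differed by -0.67 (SE 0.09, adjusted p = 6.29e-05) with siKeap1-1 and -0.69 (adjusted p = 5.28e-05) with siKeap1-2. Cd5l was higher by 0.34 with siKeap1-2 (adjusted p = 0.019). C1qa differed by -0.11 and -0.04 and was called with neither siRNA. The same fit covered Cd5l with siKeap1-1, Cd163 with siKeap1-2, Marco and Adgre1, whose differences from siControl are not given here.

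The markers varied together between livers of the same group, but not as a single block. Over the 24 arrays, with group means removed, Pearson r between pairs of markers ranged from 0.10 to 0.92 with a median of 0.54. Of 36 pairs, 26 passed an adjusted p of 0.05 (two-sided permutation of residuals within groups, 100000 resamples, Benjamini-Hochberg over the pairs), and all 26 had r above 0. By Spearman rho 21 passed, and without the 2 arrays farthest from the median 19 passed. The closest pair was Clec4f and Folr2 (r = 0.92, rho = 0.88, permutation p = 1e-05, the smallest the resamples can give, adjusted p = 3.6e-05), and without siKeap1-1 replicate 2 and siKeap1-2 replicate 7 r was 0.87. Vsig4 and Clec4f gave r = 0.87 (rho = 0.90, permutation p = 1e-05, adjusted p = 3.6e-05), and Adgre1 and C1qa gave r = 0.82 (rho = 0.84, permutation p = 1e-05, adjusted p = 3.6e-05). Each group held fed and fasted mice that the labels do not resolve, and their part in these correlations was not tested.

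Timd4 and Cd163 each had their highest r with the other. It was 0.70 (rho = 0.67, permutation p = 0.00073 and 0.00131, adjusted p = 0.00155 and 0.00295), and 0.71 without siKeap1-1 replicate 8 and siKeap1-2 replicate 7. Within single groups of 8 it was 0.93 with siControl, 0.47 with siKeap1-1 and 0.68 with siKeap1-2. Cd163 passed the threshold with 3 of the 8 other markers (Timd4, Vsig4 and Folr2), and with Cd5l its r was 0.10 (rho = 0.07, permutation p = 0.668 and 0.76). Marco passed with 4 of 8, the highest being C1qa (r = 0.54, rho = 0.63, permutation p = 0.00184 and 0.00042). The relation of Timd4 and Marco (r = 0.47, rho = 0.30, permutation p = 0.0357 and 0.177) rested on siKeap1-1 replicate 8 and siKeap1-2 replicate 7, without which r was 0.22. Those of Timd4 with Clec4f, Adgre1 and Folr2 (r = 0.45, 0.47 and 0.47) fell likewise without these arrays, to 0.26, 0.23 and 0.27. By permutation of rho, Clec4f and Folr2 did not pass (adjusted p = 0.0883 and 0.107), while Adgre1 did (adjusted p = 0.0379).

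**Figure D4:**
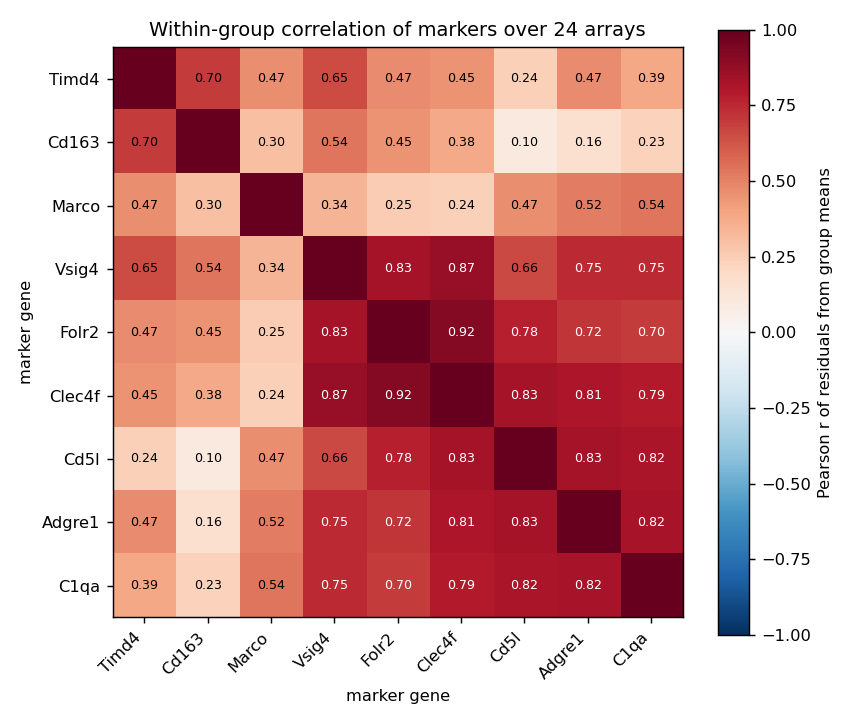
Pearson r between each pair of the 9 markers (rows and columns) over 24 arrays after removal of group means, on a colour scale from -1 to 1. Clec4f, Folr2, Vsig4, Cd5l, Adgre1 and C1qa form the block of high r, with Clec4f and Folr2 at 0.92, and Cd163 with Cd5l is the lowest at 0.10.

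The genes whose signal followed each marker most closely are given as a description. Over the 24 arrays with group means removed, and among 11472 other genes with a mean log2 signal of at least 6, the closest to Clec4f were Pilra (r = 0.93), Cfp (0.92) and Cd300ld (0.90). Pilra and Cfp were also the 2 closest to Folr2 (0.93 and 0.89), where the third was Wfdc17 (0.88), and to Vsig4 (Cfp 0.88, Pilra 0.86), where the third was Pilrb1 (0.85). Pilra and Cd300ld encode receptors of myeloid cells and Cfp encodes properdin of the complement system. The closest to Cd5l were Rac2 (0.92), Aif1 (0.91) and C1qc (0.91), those to C1qa were C1qc (0.91), Aif1 (0.90) and Cfp (0.90), and those to Adgre1 were Ctla2b (0.89), Clec1b (0.87) and Axl (0.87). Aif1 and C1qc are known as macrophage genes and Clec1b as a Kupffer cell gene. For Timd4 the closest genes were Otud1 (0.75), Fpgt (0.67) and Myo6 (0.67), for Cd163 Fam151a, Slc6a13 and Heatr5a (0.69 each), and for Marco Btbd11 (0.70), Lcp1 (0.64) and Rab7b (0.62). These r values were lower than those of the other 6 markers. Lcp1 encodes an actin-bundling protein of leukocytes.

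Other genes of Kupffer cells were called about as often as genes in general. Of 19 other measured Kupffer cell genes, 1 rose and 1 fell with each siRNA. With each gene taken by its brightest probe set, 4.82% of all genes were called higher and 4.67% lower for siKeap1-1 (9.49% in all), and 2.85% and 3.75% for siKeap1-2 (6.6% in all). Slc40a1, the iron exporter ferroportin, rose by 0.28 with siKeap1-1 (adjusted p = 0.00413) and by 0.21 with siKeap1-2 (adjusted p = 0.0419). Its mean log2 signal with siControl was 13.06, beside 11.35 for Clec4f, and which liver cells carried its change was not tested. Fcna, a ficolin of the lectin complement pathway, fell by 0.61 with siKeap1-1 (adjusted p = 0.0245), and Cdh5, an endothelial cadherin that Kupffer cells also carry, fell by 0.32 with siKeap1-2 (adjusted p = 0.0401). Of 18 pan-macrophage genes, 0 passed the limma test with either siRNA, 3 were lower at an unadjusted p under 0.05 with siKeap1-1 and 0 were with siKeap1-2. Their median log2 fold change was -0.16 and -0.11. The mean log2 signal of those 18 genes spanned 9.94 to 10.45 over the siControl arrays, 9.55 to 10.57 over the siKeap1-1 arrays and 9.71 to 10.71 over the siKeap1-2 arrays. Of 16 genes of the Kupffer cell niche and its identity factors, 0 passed with either siRNA, with 2 at an unadjusted p under 0.05 for siKeap1-1 (1 higher, 1 lower) and 3 for siKeap1-2 (1 higher, 2 lower).

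Of 14 further scavenger receptors, Cd36, a receptor for fatty acids and oxidised lipoproteins that hepatocytes also make, rose by 1.42 with siKeap1-1 (adjusted p = 3.16e-06) and by 1.29 with siKeap1-2 (adjusted p = 2.47e-05). Lrp1, an endocytic receptor of hepatocytes and macrophages, fell by 0.21 with siKeap1-1 (adjusted p = 0.0146) and by 0.23 with siKeap1-2 (adjusted p = 0.00972), and Tyro3, a receptor kinase for bridged apoptotic cells, rose by 0.18 with siKeap1-1 (adjusted p = 0.0497). Of 18 genes of recruited and inflammatory myeloid cells, Trem2, a lipid-sensing receptor, rose by 0.50 with siKeap1-2 (adjusted p = 0.0158), with a difference of 0.38 with siKeap1-1 (adjusted p = 0.0559), and no other gene of that list passed with either siRNA. At an unadjusted p under 0.05 this list had 1 higher gene for siKeap1-1, and for siKeap1-2 1 higher gene and 1 lower gene.

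Markers of other liver cells moved as follows. Of 13 endothelial, 12 stellate cell and 11 hepatocyte genes, 0 passed the limma test with either siRNA. At an unadjusted p under 0.05, 2 endothelial and 2 stellate cell genes were higher and 3 hepatocyte genes lower with siKeap1-1, and 0, 1 and 1 with siKeap1-2 in the same directions. Of 10 lymphocyte genes, Cd4, the coreceptor of helper T cells, fell by 0.55 with siKeap1-1 (adjusted p = 0.00305). Of 7 bile duct genes 2 rose with each siRNA, Anxa13 by 3.23 with siKeap1-1 and 0.96 with siKeap1-2 (adjusted p = 3.38e-11 and 0.00437) and Sox9 by 0.87 and 0.96 (adjusted p = 5.82e-05 and 2.7e-05). The other 5 genes of that list were not called: with siKeap1-2 all 5 were below 0, from -0.20 for Cftr to -0.38 for Epcam, and 2 of them at an unadjusted p under 0.05. The median of the 7 genes was 0.13 with siKeap1-1 and -0.30 with siKeap1-2. The part of these in the marker changes was not tested.

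**Figure D5:**
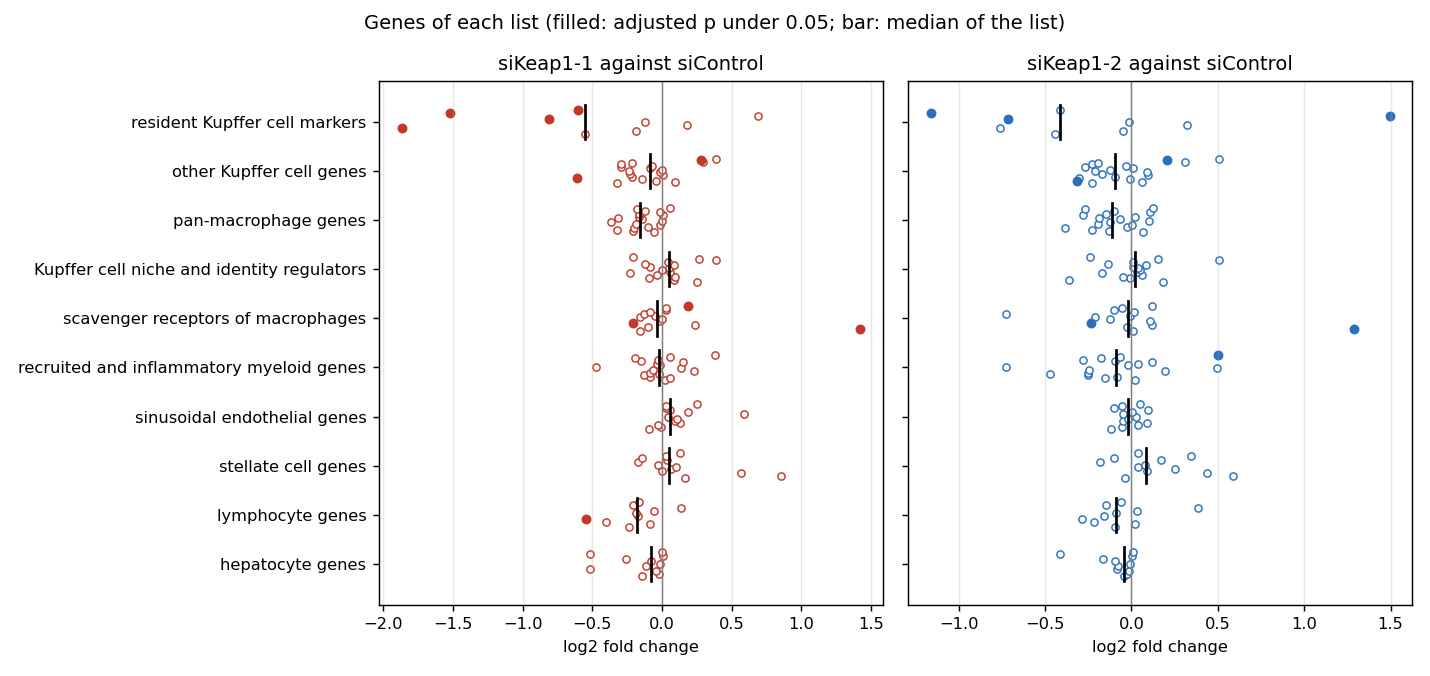
Log2 fold change against siControl (x axis) of each gene, by its brightest probe set, in the 9 markers and in 9 other gene lists (rows, without the bile duct genes), for siKeap1-1 (left) and siKeap1-2 (right), filled where the adjusted p was under 0.05 and with a black bar at the median of the list. The medians of the 9 markers, -0.55 and -0.41, lie left of those of the other lists drawn, of which the lowest are -0.18 (lymphocyte genes) and -0.11 (pan-macrophage genes). The bile duct genes, not drawn, had medians of 0.13 and -0.30.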

How the data were processed

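Liver RNA of 24 mice was measured on Affymetrix whole mouse genome arrays, 1 per mouse. The authors deposited log2 signals per probe set made with RMA of unstated version. RMA corrects the background of each array by itself and fits quantiles over all arrays, so a shift common to a whole array is removed. The platform annotation named 1 gene for 34945 probe sets, several for 932 and none for 9160. The 64 control probe sets were left out and 45037 tested, with no filter on low signal. Groups came from the sample labels. The feeding state is not in the labels and stayed in the spread within groups, so the two-way ANOVA of the methods was not fitted. The contrasts between group means were fitted across all 3 groups by limma (version 3.58.1, R version 4.3.3), with Benjamini-Hochberg adjustment over all probe sets. Script steps were tested on simulated data. Correlations used numpy 2.4.6 in Python 3.11.15. The precision is limited by the 8 arrays per group. The probe sets of a gene were given separately, and lists were counted by the brightest one. From other lists up to 4 called genes with the largest change were named, and for each marker the 3 closest genes. The markers and lists were chosen with earlier results of these data known. Alternatives were other scalings, filters, weights, covariates, control subsets and leaving out each array.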

Additional observations from a re-analysis of the deposited data

Results flagged for a closer look

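Among the 30 sets of 8 arrays (10 probe sets in 3 groups), 5 held a highest array whose gap to the next passed Dixon's limit as a share of the range of the set, where chance gives about 1 in 20 sets (1.5 of 30). Replicate 8 of siKeap1-1 was the highest for Marco, at a log2 signal of 11.17 for 1449498_at and 7.41 for 1458297_s_at. Replicate 7 of siKeap1-2 was the highest for Cd163, at 11.10, and for Folr2, at 9.97. Replicate 3 of siControl was the highest for C1qa, at 9.74. These are 3 arrays, and each was above its group mean for all 9 markers.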

How the results depend on the processing

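With siKeap1-1, 4 of 10 marker probe sets were called, and 2 (Timd4 and Cd163) with the 18S covariate, when siControl replicates 1 to 3 alone served as controls, or at a fold change over 2 with p under 0.01. With siKeap1-2, 4 were called, 0 with the 18S covariate or with controls 1 to 3 alone, and 2 at the fold and p limits, which also called 1 (Cd163) between the siRNAs. Over all probe sets the 18S covariate left 2.94% and 0.673% called, and controls 1 to 3 alone 3.42% and 0.795%. Leaving out 1 array at a time gave 4 to 4, 2 to 4 and 0 to 0 calls. The 2 came without siKeap1-2 replicate 2 or siControl replicate 6, 7 or 8. Every other alternative gave 4 with siKeap1-1, 3 to 6 with siKeap1-2 and 0 between the siRNAs. Why these calls were lost was not tested. With the replicate number as a block the counts were 4, 3 and 0, Marco 1458297_s_at being lost. The numbers did not pair the samples, as same-numbered arrays correlated between -0.17 and 0.28 in their deviations, over 0.1 in 9 of 24 pairs.

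The log2 differences that changed sign were all uncalled. Clec4f with siKeap1-2 was 0.0017 with the 18S covariate, 0.068 against controls 1 to 3 and -0.14 to 0.053 without 1 array. Clec4f between the siRNAs was -0.18 to 0.012 without 1 array. C1qa with siKeap1-2 was 0.0058 against controls 4 to 8 and -0.12 to 0.034 without 1 array. Between the siRNAs, Adgre1 was 0.0094 with the Clec4f covariate and -0.24 to 0.080 without 1 array, and Folr2 was 0.026 with that covariate and -0.18 to 0.072 without 1 array.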
